A study of Mus musculus with 6 samples.

Results

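The genes described here are 8 that carry the type I interferon signal: the receptor genes Ifnar1 and Ifnar2, the signal transducer gene Stat2, and the interferon regulatory factor genes Irf1, Irf2, Irf3, Irf7 and Irf9. They were taken by gene symbol from tables of 24982 symbols, and all 8 were found and were among the 12148 genes with enough counts to be tested. The set was chosen by gene name, with Irf7 already noted as lower after YY1 siRNA in these data, so the comparison between the groups is given for it as a description. The 6 samples are RNA from KMWT1, a mouse glioma line kept in serum-containing medium, and every sample was transfected. Of these, 3 received a control siRNA (samples 1 to 3) and 3 a commercial pool of siRNAs against YY1 (samples 4 to 6), and RNA was extracted at 48 hours. The labels do not say whether samples of a group were separate cultures, so the spread between them may be technical.

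Type I interferons bind a receptor made of the Ifnar1 and Ifnar2 chains, whose kinases TYK2 and JAK1 phosphorylate STAT proteins, STAT2 among them. STAT2 is held with IRF9 in ISGF3, a complex that binds the interferon-stimulated response element (ISRE) of antiviral genes. IRF3 is made constitutively and starts interferon transcription when viral nucleic acid is sensed, while IRF7 is itself a target of ISGF3 and amplifies the response. IRF1 is induced by interferon gamma through the gamma-activated site (GAS), and IRF2 competes with IRF1 for the same DNA.

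Promoter windows from RefSeq (build GRCm38.p6, from 250 bases before to 50 after each start) are shown for the genes on which the comparison turns or whose window held a searched motif other than a receptor's. The motifs searched on both strands were the core of the ISRE as GAAANNGAA, the GAS as TTCNNNGAA, the YY1 motif as AANATGGCG and its core ATGGCG, which lies inside the longer YY1 motif. Capitals mark the matches, and the Irf7 window, with none, is in lower case throughout.
Stat2, chr10:128270248-128270547, plus strand: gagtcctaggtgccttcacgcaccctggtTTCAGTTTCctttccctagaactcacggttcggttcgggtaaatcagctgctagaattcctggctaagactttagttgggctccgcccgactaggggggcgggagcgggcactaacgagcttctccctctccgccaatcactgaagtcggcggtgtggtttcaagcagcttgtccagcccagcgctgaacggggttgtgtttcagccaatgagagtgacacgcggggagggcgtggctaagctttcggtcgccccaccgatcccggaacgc
Irf2, chr8:46739495-46739794, plus strand: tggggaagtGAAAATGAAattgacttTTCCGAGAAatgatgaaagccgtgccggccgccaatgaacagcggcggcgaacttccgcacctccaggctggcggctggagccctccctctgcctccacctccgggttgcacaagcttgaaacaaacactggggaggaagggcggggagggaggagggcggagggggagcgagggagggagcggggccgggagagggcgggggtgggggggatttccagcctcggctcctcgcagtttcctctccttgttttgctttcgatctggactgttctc
Irf1, chr11:53769764-53770063, plus strand: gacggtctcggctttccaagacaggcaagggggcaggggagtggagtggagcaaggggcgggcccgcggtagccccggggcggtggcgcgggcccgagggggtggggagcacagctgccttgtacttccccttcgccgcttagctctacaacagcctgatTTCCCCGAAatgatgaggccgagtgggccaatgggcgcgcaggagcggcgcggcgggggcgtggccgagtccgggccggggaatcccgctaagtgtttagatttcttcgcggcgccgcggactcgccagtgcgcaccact
Irf3, chr7:44997398-44997697, plus strand: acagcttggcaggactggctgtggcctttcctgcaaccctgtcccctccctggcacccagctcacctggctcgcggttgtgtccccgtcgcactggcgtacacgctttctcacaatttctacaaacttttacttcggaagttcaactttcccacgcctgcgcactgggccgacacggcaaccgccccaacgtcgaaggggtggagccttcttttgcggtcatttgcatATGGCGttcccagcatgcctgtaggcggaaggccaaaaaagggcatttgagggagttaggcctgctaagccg
Irf7, chr7:141266375-141266674, minus strand: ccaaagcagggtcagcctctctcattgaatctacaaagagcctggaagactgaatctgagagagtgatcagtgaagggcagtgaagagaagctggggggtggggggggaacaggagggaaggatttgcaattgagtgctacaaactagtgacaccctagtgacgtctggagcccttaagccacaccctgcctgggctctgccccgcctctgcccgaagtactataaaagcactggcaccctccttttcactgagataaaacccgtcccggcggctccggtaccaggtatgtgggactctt
Stat2 held 1 ISRE core match, on the minus strand, from -221 to -213 relative to the start. Irf2 held 1 ISRE core match from -241 to -233 and 1 GAS match from -224 to -216. Irf1 held 1 GAS match from -90 to -82, and its second annotated start held none. The receptor genes each held 1 GAS match, TTCACGGAA in Ifnar1 from -5 to 4 and TTCCTGGAA in Ifnar2 from -214 to -206. Irf7 and both windows of Irf9 matched none of the 4 motifs. The longer YY1 motif was in none of the 8 genes' windows, and the core was in that of Irf3, from -22 to -17. Over all 32851 windows of this length, 8.56% held the ISRE core, 8.30% the GAS, 2.38% the longer YY1 motif and 8.93% its core. A match describes letters in the window and shows no binding. The absence of a match says nothing about bases outside the window, and Irf7 was searched in 1 window only.

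Sequencing gave 15738457 to 20644057 counts in genes per sample. Yy1 fell from 127 ± 0.826 to 79.2 ± 1.86 CPM (counts scaled by library size and TMM factors; SD, n = 3), 62.3% of control (95% interval 56.5% to 68.6%), and was nearly even across YY1 siRNA samples 4, 5 and 6 (81.2, 77.6 and 78.6 CPM). Counts that fell in no gene made up 7.99% to 9.03% in control samples and 7.87%, 10.7% and 11.3% in YY1 siRNA samples 4, 5 and 6. The summed level of 6 nuclear-retained RNAs was 1884 to 2411 CPM in controls and 1629, 2525 and 2683 CPM in those samples. Sample 6 also had the fewest counts in genes, and its table alone is not marked as combined, a mark whose meaning is not stated. The part of these differences in the results below was tested only where a fit with them is given. Of 12 glioma and glial progenitor markers, Vim, Sox2, Cd44, Pdgfra, Nes and Egfr stood above 10 CPM, S100b near that level, and Olig2, Gfap, Fabp7, Prom1 and Slc1a3 at or near 0. Of 16 microglia, macrophage and leukocyte markers, 14 stood under 1 CPM, with Tyrobp and Cd3e at 0 and Ptprc, Csf1r and Spi1 near 0, while Cd68 and Cd14 were detected. The 16 markers summed to 31.2 to 38.0 CPM in control and 34.0 to 39.4 CPM in YY1 siRNA samples. Most of that was Cd68, at 24.9 to 31.5 CPM in control and 27.8 to 31.7 CPM in YY1 siRNA samples. The sum therefore says little about the 14 markers under 1 CPM. In bulk RNA, fewer cells making a transcript and less of it per cell cannot be told apart.

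Of the 8 genes, Irf7 stood lowest against control in YY1 siRNA samples, at 78.1%, as already noted when the set was chosen. Its adjusted p in edgeR's quasi-likelihood test was 0.23, and 0.857 without control sample 1. The other 7 lay between 89.8% and 107% of control, and the intervals of all 7 took in no change. Over all genes, none of the 8 passed edgeR's quasi-likelihood test at an adjusted p of 0.05, at which 0.00823% of tested genes passed, Yy1 only. Without the filter on low counts Irf7 passed, as did 0.487% of the 17048 genes then tested. DESeq2 called 0 of the 8, against 0.149% of its genes, and limma-voom 0, against 0.00823%. At an unadjusted edgeR p under 0.05 there was 1 of the 8, Irf7, against 10.8% of all genes in either direction and 5.46% lower. All YY1 siRNA samples lay below all controls for 1 of the 8 (Irf7), against 8.91% of all genes, and above them for 1 (Irf3), against 7.36%. The median log2 fold change of the 8 was -0.055, with 6 below 0, against a median of 0.0007 and 49.8% below 0 over all tested genes.

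**Figure D1:**
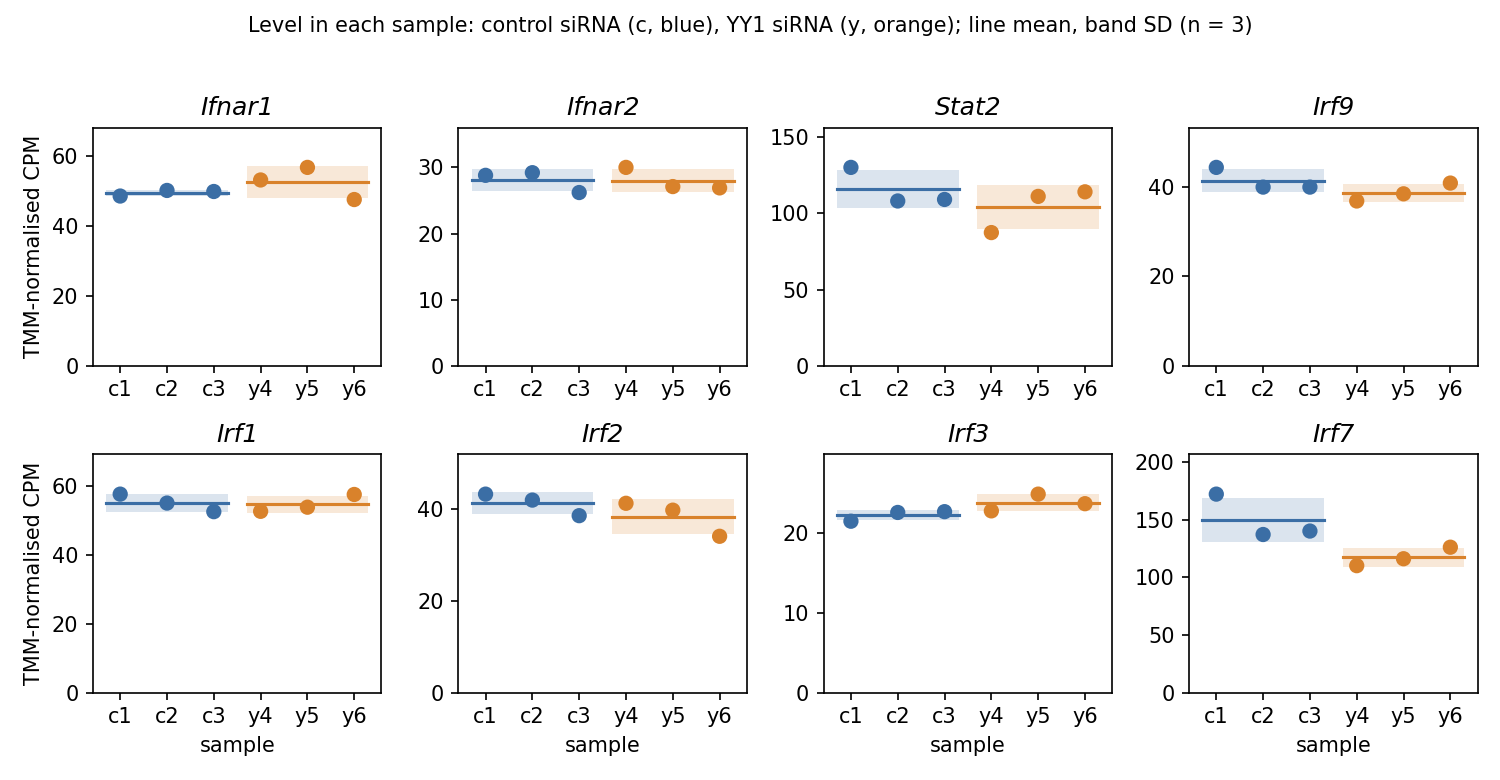
TMM-normalised CPM (y axis, from 0) of the 8 genes in control siRNA samples 1 to 3 (c, blue) and YY1 siRNA samples 4 to 6 (y, orange), with group mean (line) and SD (band). The groups do not overlap for Irf7 (137 to 172 against 110 to 126 CPM) and, by a narrow margin, for Irf3; the other 6 genes overlap.

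The receptor chains stood at moderate and even levels. Ifnar1 measured 48.6, 50.2 and 49.9 CPM in control samples 1, 2 and 3, and 53.2, 56.8 and 47.6 CPM in YY1 siRNA samples 4, 5 and 6. The YY1 siRNA samples thus held both its highest and its lowest value, and the controls lay between. Its fitted level was 106% of control (95% interval 94.3% to 119%). Ifnar2, the chain that binds interferon most tightly, measured 28.8, 29.2 and 26.2 CPM in controls and 30.0, 27.1 and 26.9 CPM in YY1 siRNA samples. These groups overlapped throughout, at 99.7% of control (88.0% to 113%).

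Both receptor genes lie on the plus strand of chromosome 16 (mm10), Ifnar2 at 91372783 to 91405589 and Ifnar1 at 91485238 to 91507441. In this receptor cluster Il10rb, a chain of the interleukin-10 and lambda interferon receptors, lies between them, and Ifngr2, a chain of the interferon gamma receptor, follows Ifnar1. Il10rb, which starts 574 bp past the end of Ifnar2, measured 18.8, 19.4 and 18.4 CPM in controls and 20.2, 20.1 and 19.5 CPM in YY1 siRNA samples (log2 fold change 0.081, SE 0.0804). Ifngr2 measured 26.6, 31.1 and 27.0 CPM against 27.4, 26.4 and 23.8 CPM (-0.12, SE 0.0906). None of the 4 genes of the cluster passed the edgeR test. The annotation places 315 exonic bases of Ifnar2 (9.46%) under another same-strand gene, Gm21970, so its count may leave out or share reads there.

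The ISGF3 genes Stat2 and Irf9 had fitted changes below 0, but their groups overlapped. Stat2 (chromosome 10, 128270559 to 128292849, plus strand) measured 130, 108 and 109 CPM in control samples 1, 2 and 3, and 87.3, 111 and 114 CPM in YY1 siRNA samples 4, 5 and 6. Control sample 1 was the highest and YY1 siRNA sample 4 the lowest, while YY1 siRNA samples 5 and 6 lay above control samples 2 and 3. The fitted change was -0.16 on the log2 scale (SE 0.110), and leaving out 1 sample at a time moved it from -0.229 without YY1 siRNA sample 6 to -0.035 without YY1 siRNA sample 4, with -0.060 without control sample 1. With the share of counts outside genes as a term in the fit it was -0.285. In that fit 2 of the 8 genes had an unadjusted p under 0.05, both lower, against 1 in each of the other alternatives. No share over all genes is given for these fits, so the counts are not read as a result about the 8. In the same fit 0 of the 8 passed edgeR's adjusted threshold, and the adjusted p of Stat2 was 0.596. Irf9, the DNA-binding part of ISGF3 (chromosome 14, 55603571 to 55610030, plus strand), measured 44.3, 39.9 and 39.9 CPM against 36.8, 38.4 and 40.8 CPM. The same 2 samples held its highest and lowest values, the groups overlapped, and the change was -0.099 (SE 0.0775), with -0.145 without YY1 siRNA sample 6 and -0.047 without control sample 1 as the extremes when 1 sample was left out. Irf9 shares 123 exonic bases with Rnf31 on the same strand.

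Irf1, an interferon gamma-induced activator (chromosome 11, 53770014 to 53778374, plus strand), measured 57.7, 55.1 and 52.6 CPM in controls and 52.7, 53.9 and 57.6 CPM in YY1 siRNA samples. The groups covered almost the same range, at 99.2% of control (95% interval 89.1% to 110%). Irf2, its competitor (chromosome 8, 46739732 to 46847458, plus strand), measured 43.3, 42.0 and 38.6 CPM against 41.3, 39.8 and 34.1 CPM. Only YY1 siRNA sample 6 lay outside the control range, and the change of -0.10 (SE 0.0872) was -0.033 without that sample and -0.152 without YY1 siRNA sample 4. It was -0.013 with the share of counts outside genes as a term.

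Irf3, the constitutive sensor-driven factor (chromosome 7, 44997648 to 45002848, plus strand), had the lowest counts of the set, 363 to 468 per library. Its level was 21.5, 22.6 and 22.7 CPM in controls and 22.8, 24.9 and 23.7 CPM in YY1 siRNA samples. All YY1 siRNA samples lay above all controls, but the gap between the nearest samples was smaller than the SD within either group. The change was 0.096 (SE 0.0801, 95% interval -0.078 to 0.27). Irf3 shares 88 exonic bases with Bcl2l12 on the other strand, and whether the counting used strand is not stated in the labels.

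Irf7, the inducible amplifier of the response, lies on the minus strand of chromosome 7 (141262706 to 141266481) and shares 45 exonic bases with Phrf1 on the other strand. It had the most counts of the set, 1923 to 3574 per library. Its level was 172, 137 and 140 CPM in control samples 1, 2 and 3 and 110, 116 and 126 CPM in YY1 siRNA samples 4, 5 and 6. Control sample 1 stood well above the other controls, YY1 siRNA sample 4 was the lowest, and every YY1 siRNA sample lay below every control. Group means were 150 ± 19.1 and 117 ± 7.93 CPM (SD, n = 3). The log2 fold change was -0.36 (SE 0.0924, 95% interval -0.56 to -0.16), lower than for all but 2.93% of tested genes. Because Irf7 was already noted as lower in this contrast, that rank is a description and tests nothing. Without control sample 1 the fold change was -0.25, and in the other fits with a sample left out -0.42 to -0.31. With each library's share of counts outside genes as a term in the fit it was -0.39, and with control sample 1 and YY1 siRNA sample 6 both left out -0.31.

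**Figure D2:**
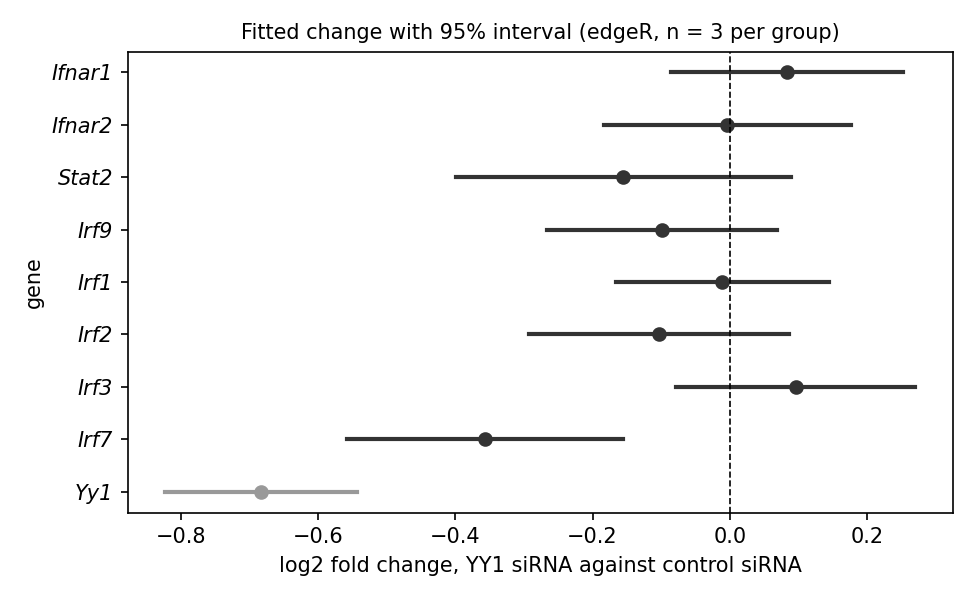
Fitted log2 fold change (x axis; YY1 siRNA against control siRNA) with its 95% interval from edgeR for the 8 genes and, in grey, the targeted gene Yy1. The interval of Irf7 (-0.56 to -0.16) lies below 0, and those of the other 7 genes cross 0.

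For the abundant genes the spread within groups was wider than counting error. At its mean control count, counting alone gives Irf7 a coefficient of variation of 1.84%, against 12.8% among controls and 6.77% among YY1 siRNA samples. For Stat2 the figures were 2.09%, 11.0% and 14.1%. Irf3 varied by 3.15% and 4.30%, at or under the 4.78% that counting alone gives. The SD of log2 CPM within groups was 0.185 for Stat2 and 0.144 for Irf7, against a median of 0.0989 for the 7859 genes at 10 to 200 CPM. The other 6 genes had SDs of 0.0543 (Irf3) to 0.121 (Irf2).

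Ratios within a library set Irf7 against its partners without a scaling factor. On counts per kb of exon, Irf7 was 5.54, 4.92 and 5.01 times Irf9 in control samples 1, 2 and 3, and 4.25, 4.31 and 4.39 times Irf9 in YY1 siRNA samples. The ratio was thus lower in every YY1 siRNA sample, by more than the spread within groups. Against Irf1 it was 3.14, 2.63 and 2.81 in controls and 2.19, 2.27 and 2.29 in YY1 siRNA samples, again without overlap. Against Stat2 it was 2.07, 2.00 and 2.01 in controls and 1.97, 1.63 and 1.73 in YY1 siRNA samples. YY1 siRNA sample 4 therefore kept nearly the control ratio of Irf7 to Stat2, with both genes low there, while samples 5 and 6 had lower Irf7 at control levels of Stat2. The ratio of Ifnar1 to Ifnar2 was 0.993 ± 0.0648 in controls and 1.05 ± 0.105 in YY1 siRNA samples (SD, n = 3), a difference within the spread. That of Irf1 to Irf2 was 2.48 ± 0.0503 and 2.68 ± 0.412, the latter drawn up by 3.15 in sample 6. These ratios come from the same contrast as the choice of Irf7 and are given as a description.

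Per length, the genes took an order in which Irf7 stood apart. Over the 6 samples Irf7 ranged from 29.1 to 45.5 CPM per kb of exon, Stat2 from 14.7 to 22.0 and Irf1 from 13.2 to 14.5. Ifnar1 (8.01 to 9.56), Ifnar2 (7.88 to 9.01) and Irf9 (6.83 to 8.22) overlapped each other, and Irf9 overlapped Irf3 (6.23 to 7.22). Irf2 was the lowest, from 4.61 to 5.86. The order depends on the length used: with the longest transcript in place of all exons, Irf7 stayed first at 41.2 CPM per kb, Irf1 (25.7) stood just above Stat2 (25.0), and Ifnar2 (9.20) was last.

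**Figure D3:**
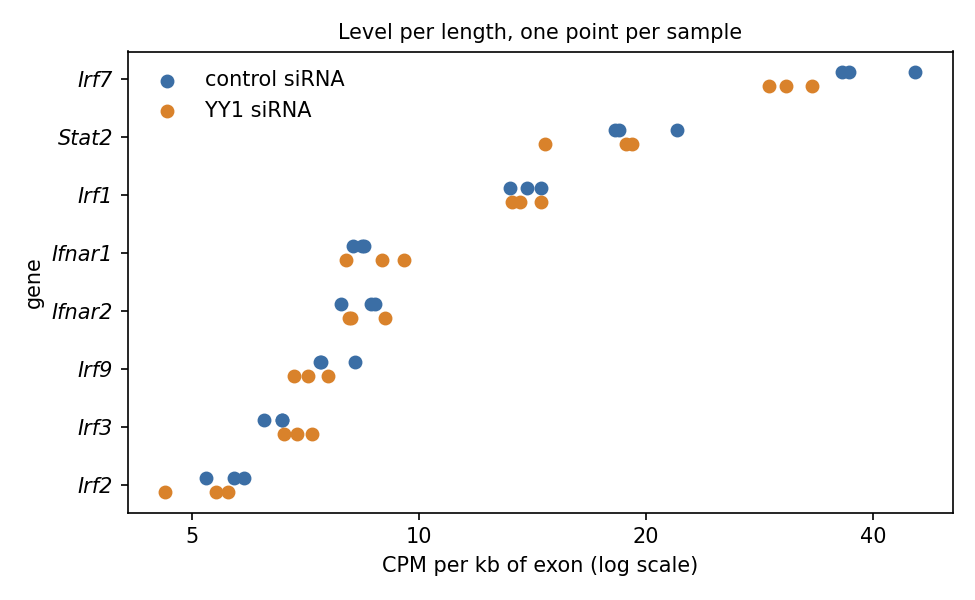
CPM per kb of exon (log axis) of each gene, 1 point per sample, control siRNA in blue and YY1 siRNA in orange, ordered by mean. Irf7, Stat2 and Irf1 do not overlap their neighbours, while Ifnar1, Ifnar2, Irf9 and Irf3 form a chain of overlapping ranges.

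The pattern of Irf7 over the 6 samples was compared with that of 8889 other genes at 10 CPM or more, by the root mean square (RMS) difference of log2 CPM, each gene centred on its own mean. Of the 6 nearest, those described here were the antiviral gene Ifit1 (0.0565), the ISG15 protease gene Usp18 (0.0634), the chemokine gene Ccl5 (0.0670), the mitochondrial tryptophanyl-tRNA synthetase gene Wars2 (0.0683) and the interferon-induced gene Ifi44 (0.0686). Among the 50 nearest genes, 12 (24.0%) were on a list of ISGF3 targets, whose members made up 0.394% of the genes compared. Irf7 and that list were both chosen with results of these same data known, so these shares are a description and test nothing. With genes from 1 CPM the 50 nearest held 7 of these targets (14.0%), which made up 0.354% of the 11592 genes then compared. Of those 50 genes, 29 were also among the 50 nearest from 10 CPM. Within the set, Stat2 (0.126) and Irf9 (0.138) were closest to Irf7, with 1.14% and 2.01% of compared genes nearer, and Irf3 (0.263) and Ifnar1 (0.272) were farthest. Likeness over 6 libraries reflects what those libraries share, the high control sample 1 and the low YY1 siRNA sample 4 included.

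**Figure D4:**
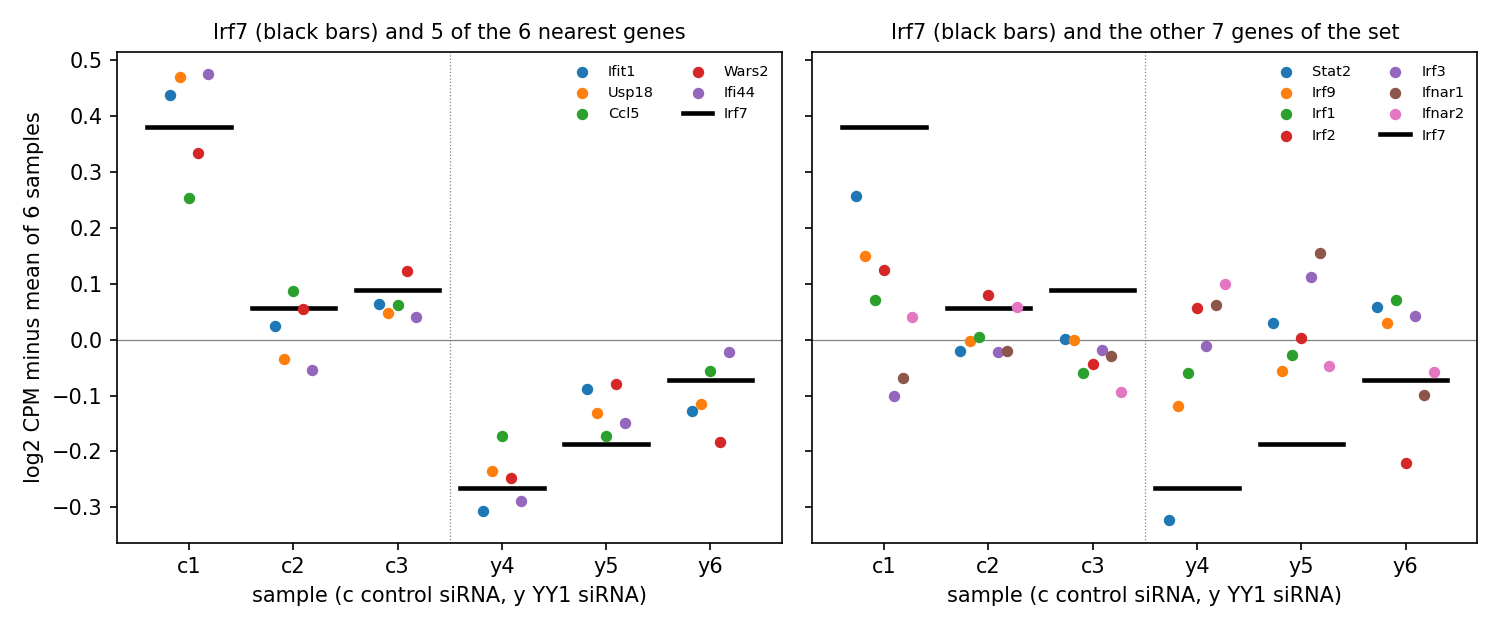
Log2 CPM minus each gene's mean over the 6 samples (y axis) for Irf7 (black bars) with 5 of its 6 nearest genes (left) and with the other 7 genes of the set (right), control siRNA samples c1 to c3 and YY1 siRNA samples y4 to y6. The genes on the left follow Irf7 in sample 1 (high) and sample 4 (low); on the right, Stat2 and Irf9 share those extremes and Ifnar1 and Irf3 do not.

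Upstream, the interferon genes themselves were hardly detected. Of 21 symbols, 18 had 0 counts in every library, the alpha interferon genes and Ifng among them, and all 21 together had 3 to 10 counts per library. A count of 0 allows up to 3 counts, or 0.144 to 0.196 CPM, for counting error only. Ifnb1, the first interferon gene that IRF3 switches on, had no more than 0.104 CPM in any library.

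Of 14 tested kinases and adaptors that switch on IRF3 and IRF7, 0 passed edgeR, 0 passed DESeq2 and 0 had an unadjusted p under 0.05. Their changes ran from -0.11 to 0.14 (median 0.021), with 5 below 0 and 9 above. Irak1, a kinase of Toll-like receptor signalling, had the smallest p and stood at 139, 143 and 142 CPM against 134, 129 and 132 CPM. Its adaptor Myd88 stood at 11.5, 9.55 and 9.47 CPM against 11.1, 11.5 and 11.0 CPM, and the ubiquitin ligase gene Traf6 at 108, 113 and 102 against 112, 115 and 113 CPM.

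Among 9 tested genes of the other STATs and the Janus kinases, 0 passed edgeR or DESeq2 and 2 had an unadjusted p under 0.05, Jak3 among them. Over all tested genes 10.8% had such a p. Jak3, the kinase of the common gamma chain of lymphocyte cytokine receptors, stood at 8.71, 8.31 and 9.58 CPM in controls and 10.2, 12.8 and 12.2 CPM in YY1 siRNA samples (log2 fold change 0.40, SE 0.116). Jak1, a kinase of the type I receptor and the most abundant gene of this list, stood at 306, 285 and 267 against 276, 279 and 244 CPM, with overlap. Stat3 stood at 145, 140 and 127 against 134, 133 and 116 CPM. The list's median was -0.064.

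Of the other IRF genes and IRF2-binding corepressors, 5 were tested, 0 passed edgeR or DESeq2 and 0 had an unadjusted p under 0.05 (median -0.069). Irf2bp2 stood at 106, 116 and 124 CPM in controls and 125, 137 and 125 CPM in YY1 siRNA samples, and Irf2bpl at 138, 138 and 125 against 131, 125 and 110 CPM. Irf2bp1 stood at 24.5, 24.3 and 25.8 against 24.0, 23.6 and 19.7 CPM. Of the leukocyte factors, Irf4 was at 0 in every library and Irf5 and Irf8 stood near 1 to 2 CPM. Of 4 tested genes of other interferon and related receptors, 0 passed and 0 had an unadjusted p under 0.05 (median -0.025). Ifngr1, the ligand-binding chain for interferon gamma, stood at 80.6, 76.0 and 76.8 against 86.9, 78.5 and 80.2 CPM.

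Among 13 tested negative regulators of receptor signalling, 0 passed edgeR or DESeq2 and 3 had an unadjusted p under 0.05, each lower (median over the list -0.034). Over all tested genes 5.46% had such a p and were lower. Socs2, a suppressor of growth hormone signalling, stood at 13.7, 14.4 and 13.5 CPM in controls and 11.5, 11.7 and 10.8 CPM in YY1 siRNA samples. Its groups did not overlap, and the change was -0.28 (SE 0.0921). Of the 13 genes 3 had every YY1 siRNA sample below every control, against 8.91% of all tested genes. Cish, a STAT5-induced suppressor with few counts, stood at 1.92, 1.82 and 2.01 against 1.10, 1.17 and 1.63 CPM. Usp18, which also sits on the Ifnar2 chain and blocks it, stood at 40.4, 28.4 and 30.1 against 24.7, 26.6 and 26.9 CPM, high in control sample 1 as Irf7 was. The lists are not separate, since Usp18 is also on the list of ISGF3 targets and is counted in both. The most abundant, the phosphatase gene Ptpn11, stood at 186, 176 and 178 against 173, 184 and 158 CPM.

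Downstream, 41 ISGF3 targets and 19 IRF1 targets were tested and 0 of either passed edgeR. DESeq2 called 2 of the ISGF3 targets and 0 of the IRF1 targets, against 0.149% of all its genes. Of the ISGF3 targets 35 had a fitted change below 0 (median -0.16), and 12 had an unadjusted p under 0.05, all lower. Of the IRF1 targets 17 were below 0 (median -0.12) and 3 had such a p, all lower. Over all tested genes 49.8% were below 0 (median 0.0007), 10.8% had such a p and 5.46% had it with a lower level. Both lists follow interferon responses already seen as low in these data and are not independent evidence of direction. Leaving out samples moved these values both ways. The share of all genes with such a p is not given for the fits that follow, so their counts have no background beside them. For the ISGF3 targets the median was -0.073 without control sample 1, with 30 below 0 and 4 with such a p, and -0.12 without YY1 siRNA sample 4, with 28 below 0 and 8 with such a p (6 lower). It was -0.23 without control sample 2 and -0.22 without YY1 siRNA sample 6, each with 17 such genes, all lower. For the IRF1 targets the median was -0.051 without control sample 1, with 14 below 0 and 2 with such a p. It was -0.080 without YY1 siRNA sample 4 and -0.12 without sample 5, each with 1 such gene, and -0.18 without sample 6, with 7, all lower. With the share of counts outside genes as a term, the medians were -0.23 (13 such genes) for ISGF3 targets and -0.22 (3 such genes) for IRF1 targets.

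The ISGF3 targets called by DESeq2 were the RNA-degrading pathway's synthetase gene Oas3, at 108, 82.7 and 86.9 CPM in controls and 65.1, 70.2 and 63.3 CPM in YY1 siRNA samples, and Ifit3b, at 26.4, 17.7 and 19.2 against 12.5, 13.9 and 14.4 CPM. Their log2 fold changes with edgeR, -0.48 (SE 0.0978) and -0.64 (SE 0.145), were larger than that of Irf7. Ifit1, a sensor of foreign RNA caps, stood at 50.4, 37.8 and 38.8 against 30.0, 34.9 and 34.0 CPM. All 3 genes had every YY1 siRNA sample below every control, but they were named for the smallest p of the list. Of its 41 tested genes 8 lay so, against 8.91% of all tested genes. Ifitm3, the most abundant target, stood at 987, 916 and 916 against 928, 792 and 854 CPM and overlapped.

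Among IRF1 targets, Ccl5 stood at 89.5, 79.7 and 78.4 CPM in controls and 66.6, 66.6 and 72.2 CPM in YY1 siRNA samples (log2 fold change -0.27, SE 0.0756). The guanylate-binding protein gene Gbp2 stood at 33.8, 24.8 and 25.7 against 21.4, 21.6 and 26.1 CPM. B2m, the light chain of MHC class I and the most abundant of the list, stood at 1752, 1636 and 1548 against 1607, 1481 and 1524 CPM. Of these 3 genes, Ccl5 did not overlap between groups, while Gbp2 and B2m did. Over the 19 tested IRF1 targets, 3 had every YY1 siRNA sample below every control, against 8.91% of all tested genes.

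**Figure D5:**
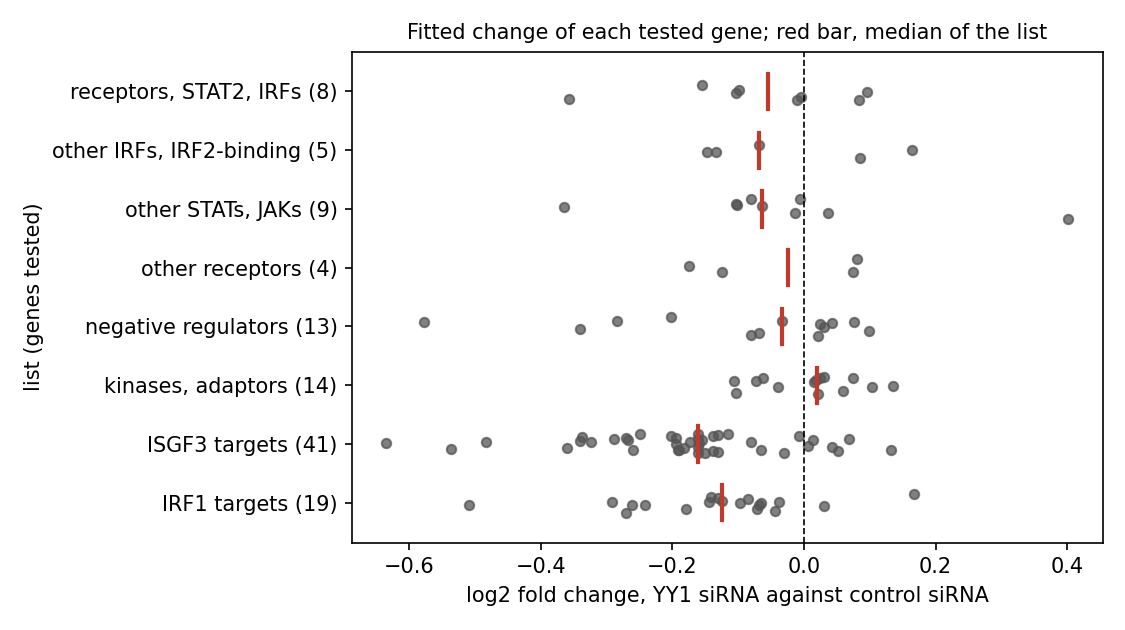
Fitted log2 fold change (x axis) of every tested gene in each list, 1 point per gene, with the list's median as a red bar; the number tested is in brackets. The 8 genes scatter about 0 apart from Irf7, the kinases and adaptors lie within -0.11 to 0.14, and the ISGF3 and IRF1 targets have medians of -0.16 and -0.12.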

How the data were processed

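RNA-seq was measured in 6 samples, 3 per group. The authors deposited whole-number counts per gene symbol, 1 table per sample, with no sign of normalization. The tools named, per the submitters' processing notes, are STAR 2.6.1a and edgeR 3.30.0, with build mm10. Neither the program that counted reads, nor its annotation and use of strand, is stated there. The 2 rows naming no gene (7.87% to 11.3% and 1.01% to 1.15% of counts) were left out.

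All genes were fitted with edgeR 4.0.16 in R 4.3.3 (quasi-likelihood F test, robust, filterByExpr, TMM, two-sided, Benjamini-Hochberg). SEs and 95% intervals come from that fit. Log2 CPM for likeness and spread used a prior count of 2. Alternatives included DESeq2 1.42.0 and limma-voom (limma 3.58.1). The fit was tested on simulated counts in which 200 of 12148 genes were changed. Of genes changed 1.25-fold it found 9%, of those changed 1.5-fold 84%, and of those changed 2-fold 92%. Unchanged genes called by mistake numbered 2, 17 and 13, in that order. The fitted changes of the 8 genes all lay under 1.5-fold. Changes near 1.25-fold were mostly missed, so a gene that did not pass is not thereby shown to be unchanged. Loci and exon lengths come from GENCODE M21 (mm10), promoters from RefSeq, in which all 8 genes matched. The ISRE core was shortened by its last base after a first search with the longer form, which had matched the same genes among the 8 but fewer windows overall.

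The 8 genes and every list were chosen with earlier results of these data known. Named genes are the 8, Yy1, the 3 of each list with the smallest p, its most abundant gene, and the 6 nearest Irf7; Bcl2l12, Rnf31, Phrf1, Gm21970, Ifnb1, Ifng, Irf4, Irf5, Irf8 and some markers are named besides. Some genes that the rule would name are not reported here.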

Additional observations from a re-analysis of the deposited data

Results flagged for a closer look

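Reads outside genes were used only through their share, as a term in the covariate fit. They made up 10.7% of counts in sample 5 and 11.3% in sample 6, both YY1 siRNA, above the highest control at 9.03%. Irf7 stood at 116 and 126 CPM in these samples and at 110 CPM in YY1 siRNA sample 4, whose share was 7.87%. Groups of 3 samples were too small for a check of single outlying samples.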

How the results depend on the processing

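No paired analysis was possible because the groups share no sample numbers. The covariate fit, the fit without control sample 1 and YY1 siRNA sample 6, and list counts under alternatives were added after the data were seen. Irf7, Stat2, Irf9, Ifnar1 and Irf3 kept their sign in all 15 alternatives, Irf2 in 14, Irf1 in 12 and Ifnar2 in 5. Irf7 passed in 1, the fit without a filter on low counts, where 0.487% of 17048 genes passed. Over all genes, DESeq2 called 19, the fit without the filter 83 and the fit on library size alone 7. Leaving out each sample gave 1 to 41 calls (41 without YY1 siRNA sample 4, 3 without sample 6 and 2 without control sample 3); of the 8 genes, 1 was called without the filter and 0 without each sample. Pathway list genes called numbered 2 without the filter and 2 with DESeq2. The median of the 8 log2 fold changes was -0.087 to -0.016 without each sample, the latter without control sample 1. The median level per kb was 12.2 with the longest transcript against 8.51 with all exons, because lengths differ. From 1 CPM, 7 ISGF3 targets were among the 50 genes nearest Irf7 (14.0%, against 0.354% of the genes compared). The causes of the other differences were not tested. With 3 samples per group, a change whose printed interval took in no change could not be told from 0. The intervals, that of Irf7 included, are not adjusted for the number of genes tested.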
